A study of Mus musculus with 29 samples.

Results

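The subject is a set of brain cells of young mice, taken 2 or 14 days after stroke: the cells that the deposited annotation marks with the parent code MdC (monocyte-derived cells), read here as blood monocytes that entered the brain and the macrophages that form from them. There were 10123 such cells in 8 libraries, out of 28240 cells in those libraries and 106977 in the 29 libraries of the study. All mice behind the 8 libraries were C57BL/6J males aged 8 to 10 weeks with no transgene or other treatment named, and each library pooled 4 to 5 hemispheres. Stroke had been induced by closing the middle cerebral artery for a limited time, and cells were taken at day 2 (4 libraries, 7225 MdC cells) or at day 14 (4 libraries, 2898 MdC cells). Brains were digested with papain in the presence of actinomycin D, a blocker of transcription, and of blockers of P2X7 and NMDA receptors, and cells were sorted as CD45-high leukocytes, microglia or endothelial cells before Drop-seq, a droplet method that tags each transcript with the barcode of its cell. Because CD45 level and the sort decide which cells were captured, the share of a cell type in a library is set in part by the gate. No sham library of day 14 was analysed here, so time since surgery and time since stroke cannot be told apart.

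After a stroke, monocytes leave the blood, enter the injured tissue and change there into macrophages. Early on they carry the acute-phase, chemotactic and glycolytic genes of recruited inflammatory cells. As debris and myelin are cleared, macrophages take up cholesterol and lipids, and may present antigen through MHC class II molecules to T cells or release growth factors. Microglia, the resident macrophages of the brain, share many of these genes and sit in the same libraries.

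The 4 day 2 libraries held 1468 to 2180 MdC cells and 1482550 to 3146166 summed counts, and the 4 day 14 libraries held 489 to 857 cells and 442336 to 1746074 counts. Libraries of both times fell into a low and a high mitochondrial batch: replicates 1 and 2 had 0.196% to 0.330% mitochondrial counts in MdC cells, and replicates 3 and 4 had 1.05% to 3.17%. Each batch held 2 libraries of each time, so the batch was a term of the fit. The 12 monocyte or macrophage markers summed to 28567 to 42096 CPM (counts scaled to the same total in each library) at day 2 and 30357 to 59930.5 at day 14. Lyz2, Ccr2 and Ly6c2 were present in each library, and Lyz2 was the largest part of the sum (19760.5 to 46433 CPM). The level of this list in other cell types was not set beside it, so the sum does not separate monocyte-derived cells from other macrophages. Markers of other cells were low but not absent. The 12 microglial markers summed to 279 to 947 CPM at day 2 and 373 to 2714 CPM at day 14, against 19408 CPM in the microglia of the same libraries. Dendritic markers summed to 8.80 to 40.5 CPM at day 2 and 46.5 to 108 CPM at day 14, against 2045 CPM in dendritic cells. Neutrophil markers summed to 181 to 353 CPM and then 74.6 to 172 CPM, against 131524 CPM in neutrophils. Border-associated macrophage markers summed to 707 to 1315 CPM and then 428 to 614 CPM, against 11449 CPM in those macrophages. Endothelial markers summed to 7.93 to 31.3 CPM at day 2 and 7.54 to 252 CPM at day 14 (medians 17.0 and 112 CPM), against 21299 CPM in endothelial cells. In day 14 replicates 1 and 2 Ly6c1 was the largest part (147 and 204 CPM), and Itm2a was above 0 in these 2 libraries alone. Ly6c1 was at 0 in day 14 replicates 3 and 4, where Kdr was the largest part (7.51 and 19.7 CPM). B cell markers summed to 15.0 to 39.7 CPM and then 42.0 to 105 CPM with no overlap, most of it Ighm. The endothelial marker Cldn5 and the neutrophil genes Camp and Ngp were at 0 or below 1 count in all 8 libraries. The part of RNA from these other cells in the results was not tested. No 2 libraries shared more than 3 cell barcodes.

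Of 8826 genes tested, 402 differed between day 14 and day 2 at an adjusted p under 0.05 (4.55% of genes tested). At day 14, 165 were higher (1.87%) and 237 were lower (2.69%). The 4 libraries of one time lay wholly above those of the other for 340 of the 402, and for 865 of all 8826 genes (9.8%). With the replicate number as a block in place of the batch, 608 genes were called, 396 of them among the 402. The count was 170 without day 2 replicate 3, 137 without day 2 replicate 4, 189 without day 14 replicate 1, 214 without day 14 replicate 2 and 170 without day 14 replicate 3, and 350, 349 and 330 without day 2 replicate 1, day 2 replicate 2 and day 14 replicate 4. Described first are 28 called genes, 14 in each direction, with the largest fold changes among those at a mean of 20 CPM or more, without overlap of libraries and not over 10 times higher in another brain cell type; other called genes, such as Lpl, Ly6c1 and C1qa with log2 fold changes of 3.91, 3.74 and 2.49, lay outside these limits. Then 19 lists of genes with a shared role follow.

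**Figure D1:**
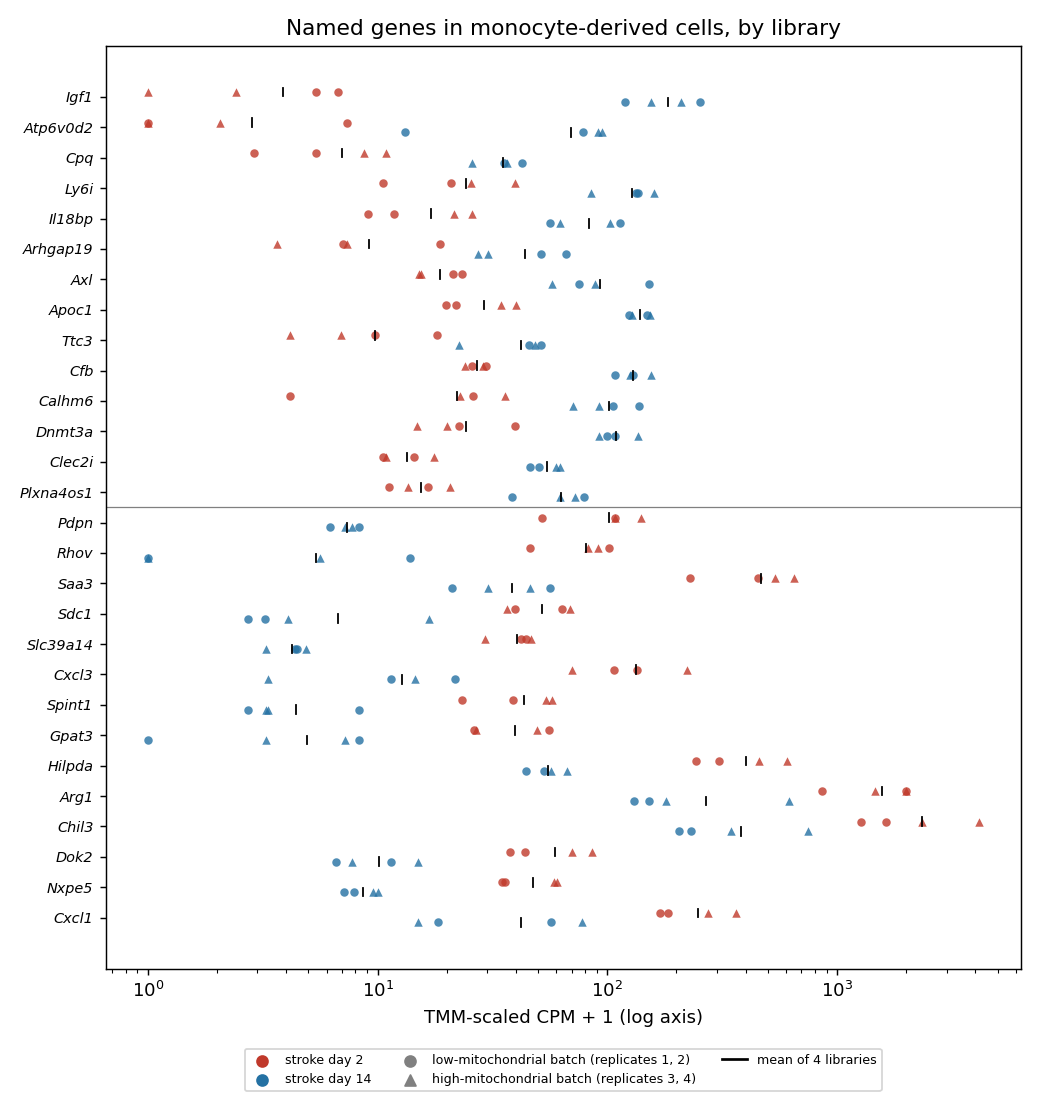
Level of the 28 named genes in monocyte-derived cells of each library, as TMM-scaled CPM plus 1 on a log axis; the upper 14 genes were higher at day 14 and the lower 14 at day 2. Red points are day 2 and blue points day 14 libraries, circles the low and triangles the high mitochondrial batch, and black bars the mean of 4 libraries; Igf1 spans 0 to 5.72 CPM at day 2 and 118 to 253 CPM at day 14.

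The highest fold change of the 28 belonged to Igf1, which encodes insulin-like growth factor 1, a secreted factor that supports the survival of neurons and oligodendrocytes. Igf1 stood at 4.38, 5.72, 1.41 and 0 CPM in day 2 libraries 1 to 4 and at 253, 118, 209 and 154 CPM in day 14 libraries 1 to 4 (log2 fold change 6.04 ± 0.52 (SE), adjusted p = 0.000734). Day 2 libraries were all near the detection limit and every day 14 library was far above them. Microglia also carry Igf1, at 333 to 700 CPM in day 14 libraries. In day 14 replicate 4 the microglial marker sum in MdC cells was 373 CPM, inside the day 2 range, while Igf1 was 154 CPM; over the 4 day 14 libraries the marker sum had a median of 1918 CPM, against 672 CPM at day 2. The part of microglial RNA in the Igf1 level was not tested.

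Next came Atp6v0d2, a subunit of the vacuolar proton pump that acidifies lysosomes, found in macrophages and osteoclasts. Its level was 0, 6.35, 1.06 and 0 CPM at day 2 and 77.7, 12.1, 93.7 and 90.4 CPM at day 14 (log2 fold change 5.37 ± 0.90 (SE), adjusted p = 0.00868). Day 14 replicate 2 was much lower than the other day 14 libraries, and 0 or few counts at day 2 make the size of the fold imprecise. Its adjusted p was 0.066 without day 2 replicate 3, 0.061 without day 2 replicate 4, 0.056 without day 14 replicate 1 and 0.055 without day 14 replicate 3.

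Axl, a receptor tyrosine kinase that recognises dying cells through the bridging protein Gas6, went from 20.2, 22.2, 14.1 and 14.5 CPM to 151, 74.6, 87.5 and 56.5 CPM (log2 fold change 2.40 ± 0.27 (SE), adjusted p = 0.00174). Il18bp, a secreted protein that neutralises interleukin-18, went from 8.09, 10.8, 24.7 and 20.5 CPM to 112, 55.5, 101 and 61.0 CPM (log2 fold change 2.50 ± 0.36 (SE), adjusted p = 0.00513). In both genes the lowest day 14 library stood above the highest day 2 library. Cfb, factor B of the alternative complement pathway, was at 28.6, 24.8, 22.9 and 27.7 CPM at day 2 and 107, 128, 125 and 154 CPM at day 14 (log2 fold change 2.29 ± 0.20 (SE), adjusted p = 0.000734). Apoc1, an apolipoprotein of lipoprotein particles, went from 18.9, 21.0, 33.5 and 39.0 CPM to 148, 123, 152 and 127 CPM (log2 fold change 2.36 ± 0.23 (SE), adjusted p = 0.00108). Day 14 levels of Apoc1 varied little among libraries.

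The remaining 8 genes with high fold changes had log2 fold changes from 2.05 for Plxna4os1 to 2.60 for Cpq. Cpq, a secreted carboxypeptidase, was at 1.91 to 9.91 CPM at day 2 and 24.8 to 41.4 CPM at day 14. Dnmt3a, an enzyme that adds new methyl groups to DNA, rose from 13.9 to 38.7 CPM to 90.6 to 136 CPM (log2 fold change 2.24 ± 0.30 (SE), adjusted p = 0.00351). Ly6i, a member of the Ly6 family, rose from 9.53 to 38.8 CPM to 83.6 to 158 CPM; reads of its near-identical relatives could be shared with it. Clec2i, a C-type lectin-related surface protein, rose from 9.53 to 16.6 CPM to 45.1 to 61.0 CPM. Arhgap19 and Ttc3, the latter a ubiquitin ligase, had log2 fold changes of 2.42 and 2.32, and with no batch term adjusted p values of 0.060 and 0.061. Calhm6, a channel protein of the calcium homeostasis modulator family, passed with the least margin of the 14 (log2 fold change 2.25 ± 0.50 (SE), adjusted p = 0.0331). Its adjusted p was 0.066 without day 2 replicate 3, 0.153 without day 2 replicate 4, 0.077, 0.067, 0.107 and 0.069 without day 14 replicates 1 to 4 in turn, and 0.079 with no batch term. Plxna4os1 is listed as an antisense transcript, and whether counting used the strand is not given in the sources used here.

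Of the 14 genes that fell, Pdpn had the lowest fold change. It encodes podoplanin, a membrane glycoprotein that binds the platelet receptor CLEC-2, and was at 51.2, 107, 107 and 139 CPM at day 2 and at 7.27, 5.20, 6.19 and 6.78 CPM at day 14 (log2 fold change -3.88 ± 0.34 (SE), adjusted p = 0.000734). Day 14 libraries lay close together, below every day 2 library. Saa3, an acute-phase serum amyloid A made by activated macrophages, fell from 228, 453, 535 and 647 CPM to 20.1, 55.5, 44.9 and 29.4 CPM (log2 fold change -3.61 ± 0.36 (SE), adjusted p = 0.00108). Hilpda, a lipid droplet protein induced by hypoxia, fell from 242, 305, 602 and 458 CPM to 52.0, 43.4, 55.7 and 65.5 CPM (log2 fold change -2.82 ± 0.21 (SE), adjusted p = 0.000734). For both genes the day 2 libraries of the high mitochondrial batch were the highest, and the change was present within each batch. Border-associated macrophages held Saa3 at 2.92 times the MdC level (882 against 302 CPM, pooled). Their marker sum in MdC cells fell without overlap, from 707 to 1315 CPM to 428 to 614 CPM. The part of their RNA in the Saa3 result was not tested.

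Arg1 and Chil3 are textbook markers of alternatively activated macrophages, the first an enzyme that consumes arginine and the second the chitinase-like protein Ym1. Arg1 stood at 857, 1987, 1458 and 1997 CPM at day 2 and 151, 130.1, 615 and 178 CPM at day 14 (log2 fold change -2.71 ± 0.45 (SE), adjusted p = 0.00868). Day 14 replicate 3 was more than the other day 14 libraries but stayed under the lowest day 2 library. Its adjusted p was 0.051 with no batch term and 0.054 without day 14 replicate 1. Chil3 stood at 1631, 1276, 2353 and 4143 CPM and then at 230.4, 205, 745 and 343 CPM (log2 fold change -2.65 ± 0.30 (SE), adjusted p = 0.00184). Its spread at both times was wide, with no overlap.

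The neutrophil-attracting chemokines Cxcl1 and Cxcl3 fell as well. Cxcl1 went from 182, 169, 272 and 361 CPM to 55.9, 17.3, 13.9 and 76.8 CPM (log2 fold change -2.54 ± 0.47 (SE), adjusted p = 0.0141), with adjusted p values of 0.052 and 0.068 without day 2 replicates 3 and 4. Cxcl3 went from 105, 133, 69.5 and 221 CPM to 20.7, 10.4, 2.32 and 13.6 CPM (log2 fold change -3.50 ± 0.55 (SE), adjusted p = 0.00662). Neutrophils of the same libraries held Cxcl3 at 8.84 times the MdC level (734 against 83.0 CPM, pooled). The neutrophil marker sum in MdC cells fell without overlap, from 181 to 353 CPM to 74.6 to 172 CPM, against 131524 CPM in neutrophils. Of its members, S100a8 went from 58.9 to 211 CPM to 0 to 30.3 CPM, while Mmp8 and Csf3r overlapped between the times. The part of free neutrophil RNA in the Cxcl3 result was not tested. Border-associated macrophages held Cxcl1 at 2.09 times the MdC level (359 against 172 CPM, pooled), and the part of their RNA in the Cxcl1 result was not tested.

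The other 7 named genes that fell had log2 fold changes from -3.70 for Rhov to -2.57 for Nxpe5. Slc39a14, a transporter of zinc and iron, was at 28.2 to 45.6 CPM at day 2 and at 2.26 to 3.87 CPM at day 14 (log2 fold change -3.51 ± 0.32 (SE), adjusted p = 0.000734). Sdc1, the heparan sulphate proteoglycan syndecan-1, fell from 35.6 to 68.0 CPM to 1.73 to 15.8 CPM. Spint1, an inhibitor of serine proteases, fell from 22.2 to 56.4 CPM to 1.73 to 7.27 CPM. Dok2, an adaptor below tyrosine kinases, fell from 36.8 to 84.5 CPM to 5.59 to 13.9 CPM. Rhov was at 0 in 2 of the 4 day 14 libraries, and its adjusted p was 0.063 without day 14 replicate 3. Gpat3, an enzyme of triglyceride synthesis, fell from 25.4 to 54.6 CPM to 0 to 7.27 CPM, and its adjusted p was 0.068 without day 2 replicate 4, 0.060 without day 14 replicate 3 and 0.0502 without day 14 replicate 4.

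**Figure D2:**
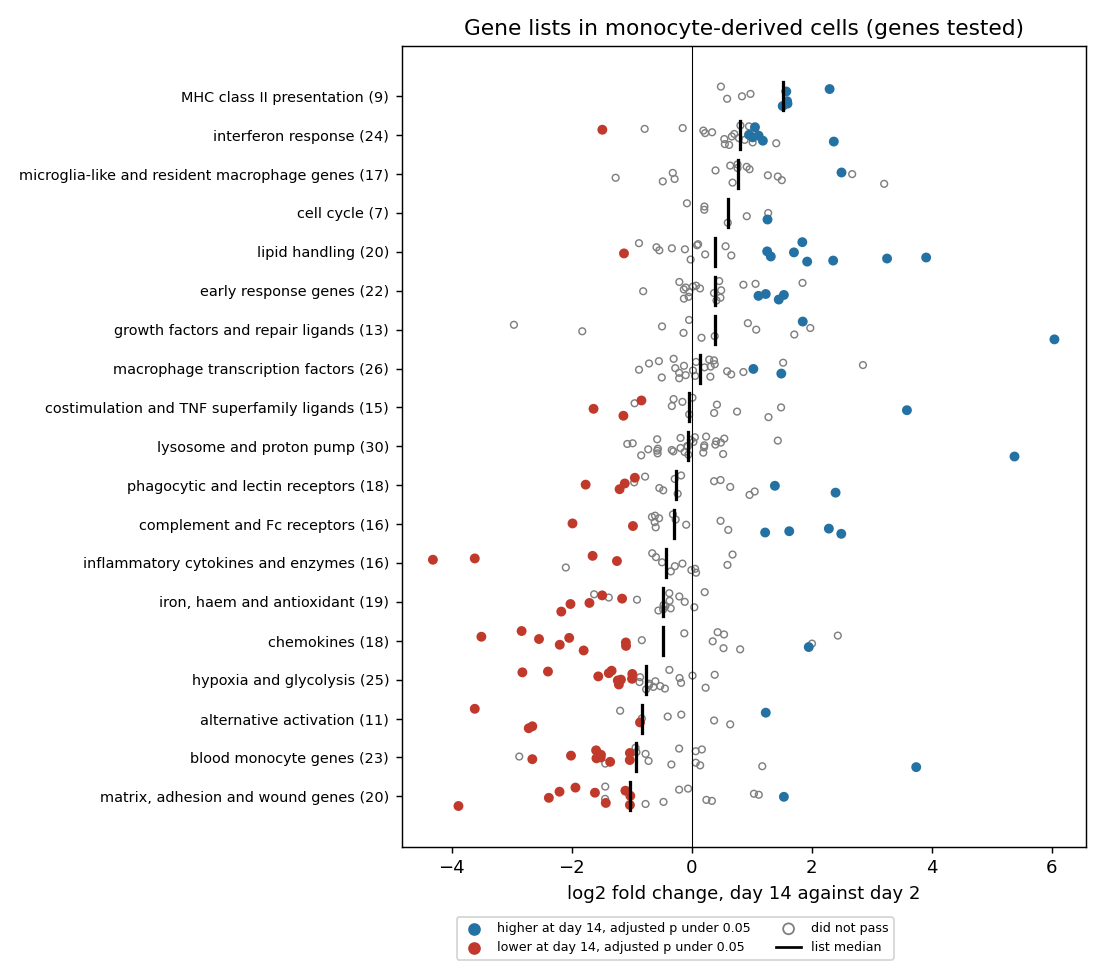
Log2 fold change, day 14 against day 2, of the genes tested in each of 19 gene lists, ordered by list median (black bars), with the number tested in parentheses. Filled points passed at an adjusted p under 0.05, blue higher and red lower at day 14, and open points did not; medians run from 1.52 for MHC class II presentation to -1.03 for matrix, adhesion and wound genes.

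Over all 8826 genes tested the log2 fold changes had a median of 0.0016, and the list counts below are read against the 1.87% of genes called higher and the 2.69% called lower. The genes of MHC class II presentation had the highest median, 1.52 over 9 genes tested. Of these 5 rose, namely Cd74, Ciita, H2-Aa, H2-Ab1 and H2-Eb1, and none fell. Ciita, the master activator of class II transcription, rose from 3.96 to 5.64 CPM to 15.1 to 40.7 CPM (log2 fold change 2.30 ± 0.40 (SE), adjusted p = 0.0103). H2-Aa, an alpha chain of the class II dimer, was at 504, 375, 874 and 775 CPM at day 2 and 1432, 1590.1, 2373 and 1556 CPM at day 14 (log2 fold change 1.52 ± 0.23 (SE), adjusted p = 0.00563). H2-Eb1, a beta chain, was at 313, 289.6, 546 and 519 CPM and then 1105, 1105, 1568 and 1066 CPM (log2 fold change 1.59 ± 0.21 (SE), adjusted p = 0.00351). All 4 day 14 libraries exceeded all 4 day 2 libraries for both chains, and replicate 3 was highest at day 14. H2-Ab1 and the invariant chain Cd74 had log2 fold changes of 1.60 ± 0.19 (SE) and 1.58 ± 0.23 (SE). Dendritic cells held these 4 abundant genes at 9.09 to 14.3 times the MdC level, and the dendritic marker Cd209a was called higher with them; the part of dendritic cells or their RNA in the result was not tested. With the sham libraries in the fit the count was 3, and H2-Aa and H2-Ab1 then had adjusted p values of 0.063 and 0.066; H2-Aa had 0.057 with no batch term.

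Class II promoters carry a conserved block of boxes just before the start of transcription, of which the Y box contains the letters CCAAT and binds the factor NF-Y. The 150 bases before the start of both genes with an entry among RefSeq promoters (build GRCm38.p6) are shown because these 2 genes moved together, with CCAAT or its reverse complement ATTGG in capitals. H2-Aa lies on the minus strand at chr17:34287824-34287973, with the match beginning 48 bases before the start, and H2-Eb1 on the plus strand at chr17:34305717-34305866, with matches at 59 and 35 bases.
H2-Aa: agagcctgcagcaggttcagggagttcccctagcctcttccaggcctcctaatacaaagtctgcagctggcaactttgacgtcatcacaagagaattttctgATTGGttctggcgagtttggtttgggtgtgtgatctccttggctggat
H2-Eb1: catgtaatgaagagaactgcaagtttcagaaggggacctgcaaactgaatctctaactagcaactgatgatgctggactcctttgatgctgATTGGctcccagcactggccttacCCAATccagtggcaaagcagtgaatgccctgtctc
Of 32851 RefSeq windows of 250 bases before a start, 33.8% hold CCAAT on either strand, and so do 37.5% of 27025 genes in at least 1 window. A match of these letters is a description of the sequence and no evidence that a factor binds there.

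Of 20 lipid handling genes tested, 8 rose and 1 fell, with a median log2 fold change of 0.40. Apoe, the main carrier of cholesterol out of brain macrophages, rose from 8738, 17367, 11825 and 13199 CPM to 55838, 49512, 50742 and 38621 CPM (log2 fold change 1.92 ± 0.28 (SE), adjusted p = 0.00525). Day 14 libraries lay above all day 2 libraries by more than the spread at either time. The cholesterol exporters Abca1 and Abcg1 rose with log2 fold changes of 1.70 ± 0.29 (SE) and 1.26 ± 0.20 (SE), and so did Mylip, a ligase that degrades the LDL receptor, with 1.84 ± 0.27 (SE). Abca1, Abcg1, Apoe and Mylip are known targets of the liver X receptors. Fabp3 and Apoc4 also rose. Lpl, lipoprotein lipase, was at 23.9, 19.1, 0 and 0 CPM and then 227, 95.4, 84.4 and 4.52 CPM (log2 fold change 3.91 ± 0.85 (SE), adjusted p = 0.0297). It was listed at 0 in both high-batch day 2 libraries, microglia held it at 13.001 times the MdC level, and its adjusted p was 0.265 with no batch term and 0.058 to 0.134 without any 1 of day 2 replicates 2 to 4 or without day 14 replicate 1. Plin2, which coats lipid droplets, was the member that fell, from 806 to 1406 CPM to 466 to 506 CPM (log2 fold change -1.13 ± 0.19 (SE), adjusted p = 0.00931). The count for the list was 5 without day 2 replicate 3 and 4 without day 2 replicate 4, and 5 with no batch term.

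Of 13 growth factors and repair ligands tested, Gpnmb and Igf1 rose and none fell. Gpnmb, a transmembrane glycoprotein of lipid-laden macrophages, went from 424, 704, 458 and 548 CPM to 2223, 1481, 2367 and 1611 CPM (log2 fold change 1.85 ± 0.26 (SE), adjusted p = 0.00417). It separated the times with no overlap, and microglia held it at 0.102 times the MdC level. The list count was 5 with the replicate block (3 higher, 2 lower) and 11 with no filter on low counts (9 higher, 2 lower). Vegfa, the vascular growth factor, was at 107 to 185 CPM at day 2 and 92.9 to 232 CPM at day 14 (log2 fold change 0.38 ± 0.24 (SE), adjusted p = 0.427). In the list of 30 lysosome and proton pump genes, Atp6v0d2 was the member called, and the median was -0.06; 3 were called with the block (2 higher, 1 lower), 8 by DESeq2 (3 higher, 5 lower), 4 with no filter (2 higher, 2 lower), 3 without day 14 replicate 4, and none without either of day 2 replicates 3 and 4 or either of day 14 replicates 1 and 3. Ctsd, the protease cathepsin D, was at 2280.0 to 3949 CPM and then 1972 to 6881 CPM (log2 fold change 0.39 ± 0.35 (SE), adjusted p = 0.599).

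Of 18 phagocytic and lectin receptors tested, Axl and Clec7a rose and Clec4d, Clec4e, Lgals3 and Msr1 fell. Clec7a, the beta-glucan receptor dectin-1, rose from 489, 381, 751 and 607 CPM to 1389, 924, 1461 and 2033 CPM (log2 fold change 1.39 ± 0.22 (SE), adjusted p = 0.00689), with an adjusted p of 0.060 with no batch term and 0.056 without day 2 replicate 4. Clec4d, a partner of the mycobacterial lipid receptor Mincle, fell from 709.9, 517, 800.4 and 987 CPM to 199.7, 180.3, 228 and 271 CPM (log2 fold change -1.77 ± 0.19 (SE), adjusted p = 0.00154). Both genes encode lectins, and they moved in opposite directions without overlap. Msr1, a scavenger receptor, fell with a log2 fold change of -1.20 ± 0.19 (SE), and its adjusted p was 0.149 with no batch term. Trem2, a lipid receptor of macrophages, had 328 to 464 CPM at day 2 and 382 to 960 CPM at day 14 and did not pass (log2 fold change 0.96 ± 0.29 (SE), adjusted p = 0.0863). The list count was 3 without day 2 replicate 4 and 2 with no batch term.

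Of 16 complement and Fc receptor genes, C1qa, C1qb, C1qc and Cfb rose, and C5ar1 and Cfp fell. C1qa, a chain of the first complement component, was at 289, 618, 152 and 94.5 CPM at day 2 and 1681, 1431, 1694 and 599 CPM at day 14 (log2 fold change 2.49 ± 0.45 (SE), adjusted p = 0.0117). The lowest day 14 library, replicate 4, lay just under the highest day 2 library, replicate 2. Microglia held C1qa at 11.4 and C1qc at 8.64 times the MdC level, and the microglial marker sum had a median of 672 CPM at day 2 and 1918 CPM at day 14; the part of microglial RNA was not tested. C1qa had adjusted p values of 0.071, 0.068 and 0.098 without day 2 replicate 3, without day 2 replicate 4 and with no batch term, and C1qc of 0.066 to 0.1497 in those 3 settings and without day 14 replicate 1 or 3. C5ar1, the receptor for the complement fragment C5a, fell from 304, 366, 285 and 375 CPM to 95.6, 101, 92.1 and 45.2 CPM (log2 fold change -1.98 ± 0.23 (SE), adjusted p = 0.00198). Day 14 replicate 4 was the lowest of the 8 libraries. The list count was 2 without day 2 replicate 4, 3 without day 2 replicate 3 or day 14 replicate 1 or 3, and 2 with no batch term.

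Of 17 genes of microglia and other resident macrophages, C1qa alone rose and none fell, with a median log2 fold change of 0.76. The count was 6, all higher, with the replicate block, by DESeq2 or with only cells of at least 500 counts. It was 8 with no filter on low counts (7 higher, 1 lower) and 7 with cell values rounded up before summing (6 higher, 1 lower). With the sham libraries in the fit or without day 14 replicate 4 it was 3. Without TMM, without day 2 replicate 1, or without the 5% of cells with the highest counts it was 2. It was 0 without day 2 replicate 3 or 4 or with no batch term.

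Interferon response genes had a median log2 fold change of 0.80 over 24 genes, of which 6 rose, among them Bst2, Ifi44, Ifih1, Rsad2 and Stat2, and Ifitm1 fell. Bst2, the antiviral protein tetherin, was at 429, 412, 644 and 562 CPM at day 2 and 1047, 1191, 1091 and 865 CPM at day 14 (log2 fold change 1.06 ± 0.21 (SE), adjusted p = 0.0202). The times did not overlap, with a day 14 level 2.08-fold that of day 2. The call was close to the threshold: Bst2 had adjusted p values of 0.052 to 0.101 without day 2 replicate 1, 3 or 4 or any of day 14 replicates 1 to 3. Its adjusted p was 0.153 with the sham libraries in the fit and 0.057 with no batch term. Ifi44 had the highest log2 fold change of the list, 2.37 ± 0.37 (SE). With the replicate block 13 genes of the list were called (11 higher, 2 lower), by DESeq2 11 (9 higher, 2 lower) and with no filter on low counts 15 (13 higher, 2 lower). The count was 1 without either of day 2 replicates 3 and 4 or day 14 replicate 1, 2 without day 14 replicate 2, 3 or 4, and 1 with no batch term. Ifitm1, a membrane protein that restricts viral entry, fell from 248 to 715 CPM to 88.9 to 228 CPM, and neutrophils held it at 11.9 times the MdC level; its call was lost when day 2 replicate 3 or 4, or day 14 replicate 1, 3 or 4, was left out.

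Of 18 chemokines tested, 8 fell and Ccl5 rose. Ccl2 and Ccl7, ligands of the monocyte receptor CCR2, both fell. Ccl7 went from 423, 479.5, 919 and 1821 CPM to 101, 119.6, 351 and 181 CPM (log2 fold change -2.20 ± 0.29 (SE), adjusted p = 0.00351), and Ccl2 had a log2 fold change of -1.80 ± 0.31 (SE). Cxcl2, like Cxcl1 and Cxcl3 a ligand of the neutrophil receptor CXCR2, fell from 3016 to 5279 CPM to 595 to 1362.5 CPM (log2 fold change -2.04 ± 0.32 (SE), adjusted p = 0.00622). Pf4, platelet factor 4, fell with a log2 fold change of -2.83 ± 0.47 (SE), with an adjusted p of 0.064 without day 14 replicate 3, while border-associated macrophages, of whose marker list it is a member, held it at 20.5 times the MdC level. Ccl5, a T cell and monocyte attractant, rose from 26.04 to 83.3 CPM to 136 to 238 CPM (log2 fold change 1.95 ± 0.34 (SE), adjusted p = 0.0106). The list count was 5 without day 2 replicate 4 or day 14 replicate 3, and Ccl7 had an adjusted p of 0.081 with no batch term.

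Among 16 inflammatory cytokines and enzymes, none rose and 4 fell (Il1r2, Lcn2, Ptgs2 and Saa3). Ptgs2, the cyclooxygenase that starts prostaglandin synthesis, fell from 613, 468, 466 and 435 CPM to 271, 201, 162 and 206 CPM (log2 fold change -1.24 ± 0.18 (SE), adjusted p = 0.00529). Its lowest day 2 library was well above its highest day 14 library. Il1b was at 3304 to 8519 CPM at day 2 and 3129.9 to 6838 CPM at day 14 (log2 fold change -0.35 ± 0.25 (SE), adjusted p = 0.489). Tnf was at 97.8 to 216 CPM and then 74.5 to 225 CPM (log2 fold change -0.15 ± 0.28 (SE), adjusted p = 0.838). Neither cytokine passed, and the libraries of both times overlapped. Il1r2, the decoy receptor for interleukin-1, lost its call when day 2 replicate 1, day 2 replicate 4 or any 1 of the day 14 libraries was left out, and neutrophils held it at 70.4 times the MdC level. Of 15 costimulators and TNF superfamily ligands, Tnfsf8 rose and Cd80, Havcr2 and Tnfsf9 fell. Tnfsf9, the ligand of the T cell receptor 4-1BB, fell from 251, 147, 397 and 302 CPM to 112, 86.7, 83.6 and 54.2 CPM (log2 fold change -1.63 ± 0.31 (SE), adjusted p = 0.017), with an adjusted p of 0.058 to 0.0997 when day 2 replicate 3, day 2 replicate 4, day 14 replicate 3 or day 14 replicate 4 was left out. Cd80 had adjusted p values of 0.053 to 0.196 when any library but day 14 replicate 4 was left out, and Havcr2 of 0.082 to 0.146 when any but day 2 replicate 2 and day 14 replicate 4 was. The count of that list was 1 without either of day 2 replicates 3 and 4 or day 14 replicate 3, and 2 without day 2 replicate 1 or day 14 replicate 1 or 2.

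Blood monocyte genes had a median log2 fold change of -0.93 over 23 genes, with 9 lower and 1 higher. S100a10, a partner of annexin A2, fell from 1013, 734, 1672 and 2183 CPM to 213, 229, 471 and 469.9 CPM (log2 fold change -2.01 ± 0.20 (SE), adjusted p = 0.00108). S100a4, S100a6 and S100a11, calcium-binding proteins of the same family, fell with log2 fold changes of -1.59, -1.52 and -1.51. Fn1, Hp, F10, Gsr and Chil3 fell too. The monocyte identity gene Ly6c2 did not follow them (log2 fold change 1.18 ± 0.38 (SE), adjusted p = 0.112), with 296 to 1452 CPM at day 2 and 1882 to 2677 CPM at day 14. Ly6c1 was called higher, but it was 9.77 and 15.9 CPM in day 2 replicates 1 and 2, 144 and 205 CPM in day 14 replicates 1 and 2, and listed at 0 in all 4 libraries of the other batch. Endothelial cells held it at 225 times the MdC level, its adjusted p was 0.324 with no batch term and 0.392 with cell values rounded up before summing, and reads of Ly6c1 and Ly6c2 may be split between them. The list count was 4 with no batch term and 16 with no filter on low counts (2 higher, 14 lower).

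Matrix, adhesion and wound genes had the lowest median, -1.03 over 20 genes, with 9 lower and Timp2 higher. Emp1, an epithelial membrane protein, fell from 424, 322, 488 and 749.7 CPM to 107, 53.8, 188 and 67.8 CPM (log2 fold change -2.20 ± 0.33 (SE), adjusted p = 0.00554). Adam8, a surface metalloprotease, fell from 304, 277, 175 and 269 CPM to 58.2, 60.7, 55.0 and 99.4 CPM (log2 fold change -1.94 ± 0.25 (SE), adjusted p = 0.00351). Timp1, an inhibitor of matrix metalloproteases, fell with a log2 fold change of -2.38 ± 0.32 (SE), while Timp2, of the same family, rose with 1.54 ± 0.28 (SE). Vim, Tgfbi, Cd44, Plaur, Fn1 and Pdpn completed the genes that fell. The count was 6 without day 2 replicate 4 or day 14 replicate 3 and 6 with no batch term. Of 11 alternative activation genes, 4 fell (Arg1, Chil3, Il4ra and Saa3) and Egr2 rose, and the count was 3 with no batch term and without either of day 2 replicates 3 and 4 or either of day 14 replicates 1 and 3. Mrc1, the mannose receptor of the same list, was at 24.0 to 41.4 CPM and then 31.2 to 113 CPM (log2 fold change 0.64 ± 0.42 (SE), adjusted p = 0.451).

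Hypoxia and glycolysis genes fell in part: 10 of 25 were lower, none was higher, and the median log2 fold change was -0.76. Besides Hilpda, the most lowered were Ankrd37, a known target of hypoxia-inducible factor, and Egln3, the oxygen sensor that marks that factor for decay. Ankrd37 was at 54.6, 38.1, 66.0 and 68.0 CPM at day 2 and 10.1, 10.4, 13.2 and 6.78 CPM at day 14 (log2 fold change -2.39 ± 0.26 (SE), adjusted p = 0.00161). Glycolytic enzymes changed by less, with log2 fold changes of -0.99 ± 0.20 (SE) for Ldha, -1.18 ± 0.23 (SE) for Pkm, -1.21 ± 0.26 (SE) for Aldoa and -1.23 ± 0.22 (SE) for Eno1. Ldha, which turns pyruvate into lactate, was at 576, 596, 856 and 1007 CPM and then 321, 277, 574 and 341 CPM, where day 14 replicate 3 lay just under the lowest day 2 library. Slc16a3, the exporter of lactate, fell from 189.7, 135, 169 and 235 CPM to 60.4, 45.1, 109 and 79.1 CPM (log2 fold change -1.33 ± 0.22 (SE), adjusted p = 0.00868), and its adjusted p was 0.066 with no batch term and 0.065 without day 2 replicate 4. Not all targets of this pathway passed: Slc2a1, the glucose importer, had a log2 fold change of -0.76 ± 0.26 (SE), and Hk2, the first enzyme of glycolysis, one of 0.23 ± 0.22 (SE). The list count was 6 without day 2 replicate 1, 3 without day 2 replicate 3, 2 without day 2 replicate 4, 5 and 3 without day 14 replicates 1 and 2, and 2 with no batch term.

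Hypoxia-inducible factor binds DNA at a core of the letters ACGTG. The 150 bases before the start (RefSeq, GRCm38.p6) of 3 of the genes that fell are shown because the core stands close to their starts; capitals mark ACGTG or its reverse complement CACGT, which overlap in the run CACGTG. Ldha is on the plus strand at chr7:46845654-46845803, Slc16a3 on the plus strand at chr11:120948917-120949066, and Hilpda, shown for the second of its listed starts, on the plus strand at chr6:29272476-29272625.
Ldha: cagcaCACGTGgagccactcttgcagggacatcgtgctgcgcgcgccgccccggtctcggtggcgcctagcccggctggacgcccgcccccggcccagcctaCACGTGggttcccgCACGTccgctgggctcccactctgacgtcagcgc
Slc16a3: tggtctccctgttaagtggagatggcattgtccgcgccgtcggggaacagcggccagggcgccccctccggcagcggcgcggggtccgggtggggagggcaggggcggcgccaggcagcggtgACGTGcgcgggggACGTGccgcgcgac
Hilpda: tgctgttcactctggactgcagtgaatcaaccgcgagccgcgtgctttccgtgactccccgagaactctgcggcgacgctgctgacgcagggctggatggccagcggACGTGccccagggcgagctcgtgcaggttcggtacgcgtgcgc
The matches begin 145, 144, 48, 47 and 34 bases before the start in Ldha, 27 and 14 in Slc16a3, and 43 in Hilpda. Of the 10 genes that fell, 8 had an entry, and 7 of these held the core on either strand within 250 bases before at least 1 start (Aldoa, Ankrd37, Egln3, Hilpda, Ldha, Pkm and Slc16a3; Eno1 did not). The share of all 27025 genes with the core in at least 1 such window was 18.5%, and of single windows 16.6%. The letters were searched after the genes had been seen to fall, and a match does not show binding. The list was drawn up for a role in hypoxia and glycolysis, so its members may hold the core whether or not they fell. The share among members that were not called is not given, so these shares do not link the core to the fall.

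Of 19 iron, haem and antioxidant genes, none rose and 5 fell. Hmox1, which breaks down haem, fell from 251, 505, 355 and 540.3 CPM to 103, 113, 94.4 and 54.2 CPM (log2 fold change -2.17 ± 0.30 (SE), adjusted p = 0.00417). Slc7a11, the cystine importer for glutathione synthesis, fell with a log2 fold change of -2.02 ± 0.29 (SE), and Gclm, Mt1 and Prdx6 fell too. Gclm had adjusted p values of 0.052 to 0.087 when any library but day 2 replicates 1 and 2 was left out, and Mt1 of 0.051 to 0.077 without any 1 of day 2 replicates 2 to 4 or day 14 replicates 1 and 3. Slc7a11 had an adjusted p of 0.079 with no batch term. The count was 8 with the replicate block, 8 without day 2 replicate 1, 2 without either of day 2 replicates 3 and 4 or either of day 14 replicates 1 and 3, 3 without day 14 replicate 2, and 2 with no batch term.

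Of 26 macrophage transcription factors, Cebpa and Mitf rose and none fell. Cebpa, a factor that drives myeloid differentiation, was at 56.9, 70.5, 25.8 and 16.5 CPM and then 131, 168, 76.6 and 72.3 CPM (log2 fold change 1.49 ± 0.23 (SE), adjusted p = 0.00563). The day 14 libraries of the low mitochondrial batch were the highest, the times did not overlap, and within each batch both day 14 libraries were above both day 2 libraries; with no batch term its adjusted p was 0.207. Mitf, a driver of lysosomal genes, had a log2 fold change of 1.03 ± 0.23 (SE), with adjusted p values of 0.059 to 0.159 when any library but day 2 replicate 1 and day 14 replicate 2 was left out. Of 22 early response genes, Egr1, Egr2, Fosb and Jund rose and none fell; such genes are switched on rapidly by stimulation. Fosb went from 70.7 to 196 CPM to 191 to 559 CPM and Jund from 67.7 to 179 CPM to 152 to 342 CPM, so libraries of both times overlapped. The count of that list was 7 with the replicate block (6 higher, 1 lower) and 8 with no filter on low counts (7 higher, 1 lower). It was 1 without day 2 replicate 3 or 4, 2 without day 2 replicate 2 or day 14 replicate 1, 3 or 4, and 1 with no batch term. Of the transcription factors, 4 were called with the block, 1 without either of day 2 replicates 3 and 4 or either of day 14 replicates 1 and 3, and 0 with no batch term. By DESeq2 6 of them were called (4 higher, 2 lower), and with no filter on low counts 6 (5 higher, 1 lower). Of the 22 cell cycle genes listed, 7 passed the filter on low counts, and Ccnd1, cyclin D1, rose; none was called without either of day 2 replicates 3 and 4 or day 14 replicate 2.

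The deposited annotation divides MdC cells into 6 subtypes, MdC1 to MdC6, whose names are codes. Their shares of MdC cells differed between the times. MdC1 made up 31.5% ± 3.39 (SD, n = 4) of MdC cells at day 2 and 1.91% ± 1.24 (SD, n = 4) at day 14, and MdC2 28.8% ± 2.26 and 3.73% ± 1.21. MdC6 went the other way, from 2.84% ± 3.37 to 34.0% ± 1.26, and MdC4 and MdC5 from 12.5% ± 2.21 and 9.56% ± 1.14 to 24.8% ± 3.47 and 22.6% ± 1.43. For these 5 subtypes the libraries of both times did not overlap, while MdC3 had 14.7% ± 2.29 and 12.99% ± 5.22 with overlap. Subtypes were clustered by the authors from the same cells, so these shares are a description with no test. A sum over MdC cells cannot tell a shift of subtypes from a change of RNA in each.

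**Figure D3:**
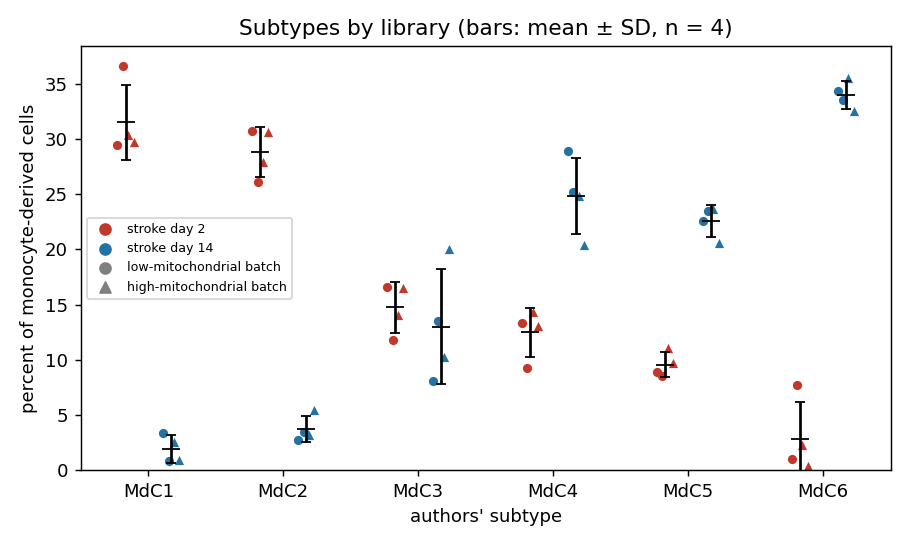
Share of the authors' 6 subtypes among the monocyte-derived cells of each library, in percent; points are libraries (red day 2, blue day 14, circles low and triangles high mitochondrial batch) and bars the mean ± SD of 4 libraries. MdC1 and MdC2 make up most cells at day 2, and MdC6, MdC4 and MdC5 most at day 14.

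Pooled over libraries, levels within subtypes were as follows. Igf1 was at 0.323 to 5.13 pooled CPM in MdC1 to MdC5 and 36.8 in MdC6 at day 2, and at 106, 118, 30.4, 28.7, 16.9 and 421 in MdC1 to MdC6 at day 14. Hilpda was at 439.7, 539, 295 and 179 in MdC1, MdC2, MdC4 and MdC6 at day 2 and at 212, 154, 26.4 and 62.4 at day 14. Arg1 was at 2866 pooled CPM in MdC1 at day 2 and 3102 at day 14, but the day 14 value came from 58 cells, 27 of them from replicate 1, 4 from replicate 2, 19 from replicate 3 and 8 from replicate 4, and replicate 3 had the highest Arg1 level over all MdC cells. Cxcl3 was at 256 and 291 in MdC2, with 110 cells at day 14, and went from 73.5 to 0 in MdC1, from 38.4 to 10.8 in MdC4 and from 18.2 to 3.20 in MdC5. In MdC4, Arg1 went from 818 to 223 pooled CPM. Of the 14 named genes that rose, 8 were highest in MdC6 at day 14. Those with a higher pooled level at day 14 numbered 9 in MdC1, 11 in MdC2, 11 in MdC3 and 13 in MdC4. Within MdC5 and within MdC6 all 14 were higher. Of the 14 that fell, 8 were highest in MdC2 at day 14. All 14 were lower at day 14 within each of MdC3, MdC4 and MdC5. In MdC1 2 of them were higher at day 14, in MdC2 1 and in MdC6 1. The named genes had been picked for their change in sums that include the same cells. No share over all genes was set beside these counts. The microglial marker sum was also highest in MdC6, at 1766 pooled CPM at day 2 and 3150.2 at day 14.

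MdC4 had the most cells in its poorest library (123) and was tested alone. Of 3542 genes, 122 differed between day 14 and day 2 (3.44%), 48 higher (1.36%) and 74 lower (2.09%). Chil3 in MdC4 had a log2 fold change of -2.01 (adjusted p = 0.00987), Hilpda -3.36 (adjusted p = 0.00148), Saa3 -4.80 (adjusted p = 0.00148), Ly6i 2.18 (adjusted p = 0.00386) and Apoc1 1.78 (adjusted p = 0.0142). Il18bp did not pass there, with 0.05 and an adjusted p of 0.975. Of the 13 named genes with enough counts, 5 of 6 that rose and 6 of 7 that fell were called, in cells that are a fraction of those that chose them. In MdC5 4 of 5 that rose and 1 of 4 that fell were called, and in MdC3 1 of 2 that fell. In MdC4, Ly6i, Hilpda, Saa3 and Rhov were called with any 1 library left out and with no batch term. Without day 2 replicate 4 the other 7 had adjusted p values of 0.050 to 0.138. Axl had 0.068 to 0.190 when any 1 library but day 14 replicate 2 was left out, and 0.101 by DESeq2. Calhm6 had 0.077 to 0.133 when any 1 library but day 2 replicate 3 and day 14 replicate 3 was left out. Cfb lost its call without day 2 replicates 1, 3 or 4 or day 14 replicates 1 or 4, and Apoc1 without day 2 replicates 1 or 4 or day 14 replicate 1. Of those that fell, Chil3 also lost it without day 14 replicate 1, Arg1 without day 14 replicate 3, and Spint1 without day 2 replicate 3 or day 14 replicate 3. With no batch term Apoc1, Axl, Calhm6, Cfb and Chil3 had 0.053 to 0.083. Within MdC4, 4 of 7 class II genes were higher; the dendritic marker sum there was 15.2 pooled CPM at day 2 and 85.2 at day 14, and the endothelial sum 39.7 and 291. Class II levels were highest in MdC5, where H2-Ab1 was at 6567 pooled CPM at day 2 and 9814 at day 14, against at most 1299 in any other subtype, and the share of MdC5 was larger at day 14. Within MdC5, H2-Ab1 had a log2 fold change of 0.60 ± 0.15 (SE, adjusted p = 0.0472), while Cd74 (0.70, adjusted p = 0.0564), H2-Aa (0.50, adjusted p = 0.151) and H2-Eb1 (0.51, adjusted p = 0.193) did not pass. In MdC4 5 of 19 hypoxia and glycolysis genes were lower. In MdC5, 132 of 3177 genes differed (4.15%), 50 of them among the 122, and Chil3 had a log2 fold change of -0.46 with an adjusted p of 0.466. In MdC3 5 of 1572 did (0.318%). For MdC4 the count was 237 with the replicate block, and without day 2 replicates 1 to 4 in turn it was 73, 67, 61 and 24, and without day 14 replicates 1 to 4 39, 89, 40 and 85.

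Microglia of the same libraries were set beside MdC cells by a test of the difference between the 2 changes, with the library as a block. Day 2 replicate 3 held 58 microglia, with C1qa at 258 CPM against 5425 to 7052 CPM in the other day 2 microglia. In microglia alone 831 of 8889 genes were called (9.35%). Of 11124 genes, the change differed for 806 (7.25%), 313 more positive in MdC cells (2.81%) and 493 more negative (4.43%); without day 2 replicate 3 it was 830. Without TMM scaling the split was 1091 and 220, with the median over all genes at 0.31 in place of -0.06, so the balance of directions rests on the scaling. The count was 422 without day 2 replicate 1, 372 without day 2 replicate 4 and 519 without day 14 replicate 3.

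Genes with enough counts in either cell type entered that fit; of the 7874 with enough in each alone, 676 differed (8.59%). Of the 28 named genes 16 had enough counts in microglia too, and 9 of these differed; they had been picked for a large change in MdC cells, which is part of the difference. The other 12, among them Cxcl1, Cxcl3 and Clec2i, entered only through MdC cells, and no difference is reported for them. Hilpda fell in MdC cells and was not called in microglia (microglial log2 fold change -0.04 ± 0.41, SE), with a difference of -2.81 ± 0.31 (SE, adjusted p = 3.29e-05). Its microglial level was 20.1 to 168 CPM at day 2, highest in replicate 3, and 15.7 to 47.4 CPM at day 14. Saa3 differed by -4.62 ± 0.78 (SE, adjusted p = 0.0011). Microglia held little Saa3, at most 36.9 CPM at day 2 and 3.02 to 16.3 CPM at day 14. It was not called there (microglial log2 fold change 0.80 ± 0.93, SE), so the size of the Saa3 difference rests on low levels. Spint1 differed by -2.51 ± 0.47 (SE, adjusted p = 0.00249). Slc39a14 was called lower in microglia too (microglial log2 fold change -1.89 ± 0.32, SE, adjusted p = 0.00471) and differed by -1.83 ± 0.44 (SE, adjusted p = 0.0137). Of the genes that rose, Ttc3 differed by 1.75 ± 0.28 (SE, adjusted p = 0.000676), Dnmt3a by 1.40 ± 0.26 (SE, adjusted p = 0.00249) and Arhgap19 by 2.55 ± 0.51 (SE, adjusted p = 0.00408); in microglia alone these had log2 fold changes of 0.41, 0.83 and 0.16 that did not pass. Igf1 rose in both cell types, by 6.04 in MdC cells and 4.09 ± 0.39 (SE) in microglia, and the difference was 1.68 ± 0.45 (SE, adjusted p = 0.0277). Apoc1 went further in microglia, from 2.46 to 7.44 CPM at day 2 to 213 to 622 CPM at day 14, and its difference was -4.36 ± 0.51 (SE, adjusted p = 6.39e-05). For Axl, Ly6i, Cpq, Il18bp, Cfb, Calhm6 and Plxna4os1, which rose in MdC cells, microglia alone also had higher day 14 levels, and the difference did not pass; for Axl it was -0.87 ± 0.32 (SE).

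**Figure D4:**
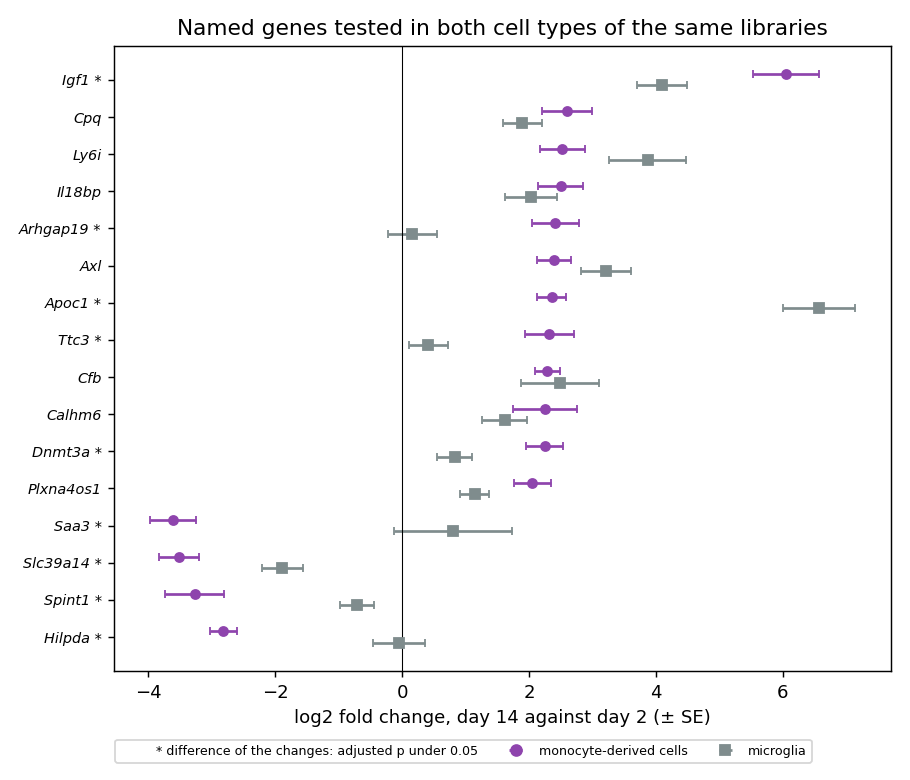
Log2 fold change, day 14 against day 2, of the 16 named genes tested in both cell types, for monocyte-derived cells (purple circles) and microglia (grey squares) of the same libraries, with SE bars. A star marks genes whose change differed at an adjusted p under 0.05. Among them are Apoc1, with the larger rise in microglia, and Hilpda, which was called lower in monocyte-derived cells and not called in microglia.

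The difference for Igf1 had adjusted p values of 0.094 with no batch term, 0.087 by DESeq2, 0.059 and 0.152 without day 2 replicates 1 and 4, and 0.078 without day 14 replicate 1. Slc39a14 lost the call without day 2 replicate 4 (0.124), day 14 replicate 1 (0.064) or day 14 replicate 3 (0.061) and by DESeq2 (0.087), and Arhgap19 without day 2 replicate 1 (0.095).

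Blood monocytes of young mice at the same times (4 libraries at day 2, 3 at day 14, leukocytes of 2 mice pooled in each, 4157 cells) gave the comparison with circulating cells, and 89 of 6208 genes (1.43%) were called in them alone. The change differed between brain MdC cells and blood monocytes for 11 of 7651 genes (0.144%), 7 more positive in brain (0.0915%) and 4 more negative (0.0523%), and 710 had an unadjusted p under 0.05. Of the 7, F11r, Gpx3, Hist1h2bc, Jaml and Shtn1 were called lower at day 14 in blood, by log2 fold changes of -2.66 to -7.18, and in brain F11r, Jaml and Shtn1 had -0.30, -0.02 and -0.35; these genes were named after their values were seen. Apoc1 was among them, with a difference of 3.37 ± 0.54 (SE, adjusted p = 0.0170); blood monocytes held 0 to 43.0 CPM of Apoc1 at day 2 and 11.5 to 19.6 CPM at day 14. S100a10 was another, with -1.82 ± 0.33 (SE, adjusted p = 0.0381), and its blood level was 400 to 688 CPM and then 405 to 625 CPM. No difference in that direction was called, S100a10 included, with no batch term or when brain day 2 replicate 1 or 4, brain day 14 replicate 2 or 3, blood day 2 replicate 3, or blood day 14 replicate 1 or 3 was left out. Chil3 and Saa3 were lower at day 14 in blood as well, Chil3 from 3576 to 9041 CPM to 1486 to 1650 CPM and Saa3 from 58.6 to 1200 CPM to 0 to 7.72 CPM, with adjusted p values of 0.000235 and 0.0018; their differences from brain did not pass. The count was 7 with the replicate block added, and 2 without blood day 14 replicate 1 or 3; leaving out each of the other 13 libraries gave 5 to 19. For Apoc1 the adjusted p was 0.0919 with the replicate block in place of the batch term, 0.067 with no batch term and 0.053 to 0.110 when blood day 2 replicate 1, day 2 replicate 4, day 14 replicate 1 or day 14 replicate 3 was left out.

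Aged mice of 17 to 20 months gave MdC cells in 3 day 2 libraries (1 male, 2 female; 271, 813 and 856 cells) and 1 female day 14 library (87 cells, 57112 counts, where 1 count is 17.5 CPM). With 1 library at day 14 no test was made. Of the 14 named genes that rose in young mice, 12 were above all 3 aged day 2 libraries in the aged day 14 library, most on 2 to 13 counts, as were 38.7% of all 8826 genes tested in young mice; Atp6v0d2 lay within their range and Arhgap19 was at 0. Of the 14 that fell, 13 were below all 3, as were 37.8% of all genes tested; 9 were at 0 there, which allows up to 52.5 CPM (counting error only); this limit is below every aged day 2 value for Pdpn, Arg1 and Cxcl3, and for the other 6 a lower level was not detectable at this depth. Igf1 was at 91.0 CPM (5 counts) at day 14 against 0 to 10.9 CPM at day 2, and Pdpn at 0 against 96.3 to 143 CPM. Saa3, which fell in young mice, was at 2038 CPM (116 counts) in the aged day 14 library and at 1085 to 2018 CPM in the aged day 2 libraries. Apoc1 was at 1219.8 CPM (70 counts) against 21.8 to 37.3 CPM, and the young day 14 libraries held 123 to 152 CPM. Gpnmb, which rose in young mice, was at 92.6 CPM (5 counts) against 155 to 344 CPM, and Apoe at 9484 CPM against 7435 to 9957 CPM. In young mice at day 14 both genes were highest in MdC6 of the 6 subtypes. The aged day 14 library held 49.4% MdC3 and 14.9% MdC6 cells, against means of 12.99% and 34.0% in young day 14 libraries. The parts of age, sex and subtype shares in these values were not tested. Arg1 was at 0 in the aged day 14 library and at 4483 to 5535 CPM in the aged day 2 libraries.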

How the data were processed

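Single-cell transcripts of 8 brain libraries were analysed from deposited tables of expected counts per gene and cell. The authors' values are not whole (0.0388% to 0.222% of non-zero values per library are), and the step that made them so, the aligner and the cell filters are not given in the sources used here. Build mm10 and Seurat come from the submitters' processing notes. Per the file headers, the authors' metadata give each cell's expected count total, its count of detected genes, its percent of mitochondrial counts and its type at 2 levels.

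Every deposited cell was kept. Expected counts were summed per library over cells with the parent code MdC, and rounded. The sums went into edgeR 4.0.16 (quasi-likelihood test, R 4.3.3) with TMM scaling, filterByExpr on group, and the mitochondrial batch as a term. The 12 young brain libraries were split at the widest ratio between neighbouring mean mitochondrial percents, 3.52-fold. Tests were two-sided, with Benjamini-Hochberg adjustment over all genes tested; called means an adjusted p under 0.05. CPM are counts scaled to a common library total, TMM-scaled for MdC values of single genes and unscaled for marker sums, subtypes, other cell types and aged mice. Differences between cell types were interaction terms; sums needed at least 20 cells. An SE is the log2 fold change divided by the root of its F. The labels do not say that the pooled libraries of a time share no animal or surgery day, so p-values measure only the spread between these libraries, which may be technical.

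Scrublet (scanpy 1.11.5) marked 0% to 0.263% of cells, too few to count as a working doublet call, so doublets remain. On counts simulated for the main comparison (8635 genes), 98 of 100 genes changed 4-fold and 32 of 100 changed 2-fold were called, with 6 of 8435 unchanged genes. The simulation gave every gene the same preset spread between libraries, not estimated from these data. Its changed genes were drawn from those with a mean over 20 CPM. These rates describe that setting and are no measure of power or error in the real libraries.

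Same-numbered libraries of both times deviated together (r = 0.28, 0.72, 0.63 and 0.32 across genes for replicates 1 to 4). The numbers were taken as a possible pairing and used as a block in an alternative fit, while the main fit had no such block. The batch is nested in the numbers, and within the low and the high batch r was 0.47 and 0.13. For day 14 replicates 1 to 4 against the differently numbered day 2 library of the same batch, r was 0.44, 0.019, 0.50 and 0.19. These values cannot tell a pairing by number from the shared batch.

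To be named, a called gene needed 20 CPM or more on average and no overlap of libraries; of these, the 14 that rose most and the 14 that fell most are given. Predicted genes, T cell receptor and immunoglobulin genes, those of haemoglobin, mitochondria and ribosomal proteins, and genes more than 10 times higher in some other brain cell type (500 cells or more), were not named. For each list, 2 to 4 called members are named by fold change; other genes given with values were chosen after their values were seen. Members, lists and tests were chosen with earlier results of these data known. Alternatives were DESeq2 1.42.0, no TMM, no filter, no batch term, the replicate block, single libraries left out, the sham libraries added, values rounded up per cell, cells under 500 counts or marked by Scrublet left out and, added after seeing the data, the block in place of the batch against blood, the 5% of cells with the highest counts left out and other subtypes. Intervals and limits for 0 counts (3 counts) cover counting error only.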

Additional observations from a re-analysis of the deposited data

Results flagged for a closer look

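In 10 of 146 groups of 4 libraries (73 genes at 2 times), 1 library lay far from the other 3 by Dixon's test at the 95% level; chance gives about 1 in 20. At day 14, replicate 3 was high for Arg1 (615 CPM against 130.1 to 178 CPM in the others), H2-Aa (2373 against 1432 to 1590.1 CPM) and H2-Eb1 (1568 against 1066 to 1105 CPM). Replicate 4 of day 14, the library with the fewest counts, was high for Sdc1 (15.8 against 1.73 to 3.10 CPM), Cd80 (33.9 against 17.0 to 19.0 CPM) and Adam8 (99.4 against 55.0 to 60.7 CPM), and low for C5ar1 (45.2 against 92.1 to 101 CPM). Spint1 was high in day 14 replicate 1 (7.27 against 1.73 to 2.32 CPM). At day 2, replicate 2 was high for Atp6v0d2 (6.35 against 0 to 1.06 CPM) and Gclm (247 against 84.2 to 109 CPM).

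For 9 of the 16 named genes with enough counts in both cell types, the change over time differed between monocyte-derived cells and microglia, by a test of the difference, against 676 of 7874 genes (8.59%) over all that had enough counts in both. The named genes had been picked for a large change in monocyte-derived cells, which is part of the difference. On the log2 scale, monocyte-derived minus microglia, it was 1.68 for Igf1, 2.55 for Arhgap19, 1.75 for Ttc3 and 1.40 for Dnmt3a. It was -4.36 for Apoc1, -4.62 for Saa3, -1.83 for Slc39a14, -2.51 for Spint1 and -2.81 for Hilpda. The Saa3 value rests on low levels in microglia, at most 36.9 CPM at day 2. Between brain monocyte-derived cells and blood monocytes, the change of Apoc1 differed by 3.37, with an adjusted p of 0.0919 with the replicate block in place of the batch term.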

How the results depend on the processing

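Of 97 single-gene results over 1630 settings, 0 turned direction, 1414 kept their side of the threshold and 216 fell short of it. The counts of called genes in the 19 lists moved by over 1.5 times in 105 of 342 settings. The day 14 against day 2 count of 402 was 142 with no batch term, 763 by DESeq2 (276 higher and 487 lower, with the median over all genes at 0.14), 745 with no filter on low counts, 608 with the replicate block in place of the batch term, and 137 to 350 with 1 library left out. The other alternatives (no TMM, sham libraries added, values rounded up, Scrublet, at least 500 counts, the 5% of cells with the highest counts left out) gave 348 to 536. The difference from microglia (806) was 1311 without TMM, 437 by DESeq2 and 372 to 922 with 1 library left out. The difference from blood monocytes (11) was 37 with no filter, 4 with no batch term, 7 with the replicate block added, 3 with the block in place of the batch, and 2 to 19 with 1 library left out. Within MdC4 (122) the count was 41 with no batch term, 237 with the replicate block, 24 to 89 with 1 library left out, and 153 by DESeq2 (41 higher and 112 lower, against 48 and 74); MdC3 in its place gave 5. Leaving out a library tests fewer samples; the cause of the other shifts was not tested. The replicate block together with the batch term could not be fitted for the day 14 against day 2 comparison, because the batch is nested in the replicate number. Day 14 replicate 4 had the fewest counts per cell (median 412), and genes with few counts, such as Atp6v0d2 and Igf1 at day 2, have imprecise folds.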
